A study of Mus musculus with 8 samples.

Results

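Genes of secretory granule docking and exocytosis were followed in RNA-Seq of mouse pancreatic islets. The 39 genes, of 24123 in the deposited table, were chosen by name from a written list and matched by gene symbol, and all 39 were found. They fall into 7 roles, with 7 SNAREs, 5 SNARE regulators and recycling factors, 6 synaptotagmins, 6 RAB3 and RAB27 GTPases, 6 RAB effectors, 6 priming factors and 3 granule membrane proteins. The choice of members used no measured value, but it was made with earlier results of these libraries known.

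The 8 libraries came from whole islets of adult male mice of 3 genotypes. Rescue islets (2 libraries, replicates 1 and 2) were Irs2-/- and homozygous for Cdk4-R24C, a change at the endogenous Cdk4 locus that makes the kinase resistant to INK-family inhibitors. Diabetic islets (3 libraries, replicates 1, 2 and 3) were Irs2-/- with wild-type Cdk4, and Control islets (3 libraries, replicates 1, 3 and 4) were Irs2+/+ with wild-type Cdk4. Rescue and Diabetic therefore share the loss of Irs2, which encodes an adaptor of the insulin and IGF1 receptors, and both alleles were present in all tissues of the animal rather than in β cells alone. Irs2+/+ islets with Cdk4-R24C were not analysed here, so the allele was seen only where Irs2 was lost. The study's methods give only a range of ages for its mice as a whole, and neither the age nor the number of mice behind a single library was given in the sources used here. The p-values therefore measure only the spread between libraries, which may be partly technical.

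Insulin leaves the β cell by regulated exocytosis. Granules loaded with insulin and zinc are carried to the plasma membrane by RAB27A and RAB3 GTPases and their effectors, are docked there and primed by MUNC13 and CAPS proteins, and fuse when calcium entering through voltage-gated channels binds synaptotagmins. Fusion itself is driven by a SNARE bundle of syntaxin, SNAP25 and VAMP2, which NSF and its adaptor α-SNAP take apart again for reuse. The α, δ and PP cells of the islet use much of the same machinery for their own hormones, so a bulk islet value averages over all of these cells.

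Depth was even, from 10.290 to 14.316 M reads in genes per library. Values are RPKM (reads per kilobase of gene, scaled to sequencing depth), and differences are on the log2(RPKM + 1) scale from limma with all 8 libraries in 1 fit, 2-sided, with Benjamini-Hochberg adjustment over the 12594 genes that reached 1 RPKM in at least 2 libraries. "Called" means an adjusted p under 0.05, and "higher", "lower", "rose" and "fell" stand for calls unless values are given alone. The gene-level value of Irs2 was 7.15 and 16.3 RPKM in Rescue, 36.3, 31.6 and 22 RPKM in Diabetic and 5.14, 11 and 6.74 RPKM in Control. It checks no label, because reads of the gene as a whole do not tell which part of the locus was removed. Markers of islet endocrine cells were present in every library, but lymphocyte, macrophage and fibroblast markers set the Rescue libraries apart. The 10 lymphocyte markers summed to 308 to 404 RPKM in Rescue, 6.47 to 114 RPKM in Diabetic and 5.60 to 25.4 RPKM in Control, and none of the 10 was at 0 in all libraries. The 8 macrophage markers summed to 580 to 677 RPKM in Rescue, 91.3 to 251 RPKM in Diabetic and 60.2 to 110.3 RPKM in Control. The 8 fibroblast markers summed to 108 to 120 RPKM in Rescue, 24.7 to 35.3 RPKM in Diabetic and 8.93 to 25.5 RPKM in Control. A list of RNAs that stay in the nucleus also differed between libraries of 1 genotype. Its mean centred log2 value was above 0 in Rescue 1 and 2, Diabetic 1 and Control 1 and 3, and between −1.34 and −1.29 in Diabetic 2 and 3 and Control 4.

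Most of the machinery was well expressed. Of the 39 genes, 33 were at or above 1 RPKM in all 8 libraries, and 36 passed the filter and were tested. By mean over the 8 libraries the order began with Syt13, an atypical synaptotagmin of endocrine cells (362 RPKM), followed by Slc30a8 (339 RPKM), Ptprn (278 RPKM) and Cplx2 (149 RPKM), while another 20 members had means of at least 10 RPKM. The leading gene differed by genotype, with group means of 247 RPKM for Syt13 and 244 RPKM for Slc30a8 in Rescue, 491 RPKM for Ptprn in Diabetic and 521 RPKM for Slc30a8 in Control. Within families the levels differed widely. Rab27a had a mean of 73.0 RPKM against 0.197 RPKM for Rab27b, and Cplx2 far exceeded Cplx1 (0.19 RPKM). Rab27b, Cplx1 and Rab3c were the 3 members left untested, with at most 0.644, 0.997 and 1.42 RPKM in any library. Stxbp5l had a mean of 0.571 RPKM and passed the filter only through Control libraries 1 and 3, so it could pass only if it was high there. Counts that hold it are also given for the other 35 genes, and its p is taken from the fit with no filter.

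Ptprn stood out in Diabetic islets. It encodes IA-2, a transmembrane protein of the insulin granule and an autoantigen of type 1 diabetes. Its level was 625, 532 and 317 RPKM in the Diabetic libraries, against 170.5, 141 and 181 RPKM in the Control libraries. The lowest Diabetic library was well above the highest Control library, and the log2 difference was 1.53 (SE 0.27, adjusted p = 0.0253, limma), or 2.88-fold. Syt5, a calcium-binding synaptotagmin of dense-core vesicles, rose as well. Syt5 had 49.0, 46.6 and 27.4 RPKM in Diabetic, against 21.0, 12.6 and 16.0 RPKM in Control, which gave a difference of 1.24 on the log2 scale (SE 0.25, adjusted p = 0.0370). Rab3d, the RAB3 form best known from the zymogen granules of exocrine cells, was the third gene called higher. Rab3d had 90.6, 102.8 and 86.9 RPKM in Diabetic, against 63.3, 44.1 and 58.8 RPKM in Control, a log2 difference of 0.76 (SE 0.16, adjusted p = 0.0385). The groups did not overlap for any of these 3 genes. In bulk islets, a change in the share of cells of a type and a change in RNA per cell cannot be told apart.

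Baiap3 changed most in the other direction. Its product is a MUNC13-like protein of dense-core vesicle traffic, and in Control, though not in Diabetic, it had the highest mean of the priming factors. Baiap3 had 10.8, 5.38 and 6.69 RPKM in Diabetic, against 31.1, 45.0 and 18.8 RPKM in Control, a log2 difference of −1.89 (SE 0.32, adjusted p = 0.0231). Control 4 was closest to the Diabetic libraries but still above them. Rph3al, which encodes the RAB3 and RAB27 effector NOC2, had 22.1, 20.8 and 26.3 RPKM in Diabetic, against 38.8, 40.6 and 34.6 RPKM in Control. That was a log2 difference of −0.70 (SE 0.13, adjusted p = 0.0314). Stxbp5l encodes tomosyn-2, which binds syntaxin and SNAP25 in place of VAMP2 and so restrains fusion. Stxbp5l had 0.459, 0.251 and 0.348 RPKM in Diabetic (54, 23 and 38 reads), against 1.11, 1.42 and 0.866 RPKM in Control (143, 154 and 105 reads), a log2 difference of −0.65 (adjusted p = 0.0400 with no filter).

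In Diabetic against Control islets, 3 of the 36 tested genes were called higher, beside 1.53% of all tested genes. A further 3 of 36 were called lower (2 of 35 without Stxbp5l), beside 2.44% of all tested genes. The median log2 difference of the 36 was −0.15, and that of all tested genes was −0.12. With the libraries scaled on 7 endocrine transcription factor genes instead, the median of the 36 turned to 0.23 and that of all genes to 0.18. The calls depended on single libraries. Without Diabetic 2, Control 1 or Control 3, limma called 0 genes in either direction, while 6 had an unadjusted p under 0.05 with higher and 9 with lower values in each of these fits. For these and all other unadjusted counts given here, the share over all tested genes was not computed. Without Diabetic 1 or Control 4 the counts were 0 higher and 1 lower, that gene being Baiap3, with 6 and 7 higher and 12 and 11 lower at an unadjusted p under 0.05. Without Diabetic 3 they were 4 higher and 6 lower, and without either Rescue library 5 higher and 3 lower. Stxbp5l, in the fits with the filter, lost its call without Diabetic 1, Diabetic 2 or any Control library. With all libraries kept it lost its call with a pseudocount of 0.1, the endocrine scaling or only the 2 groups compared. A replicate block or the nuclear-retained RNA level as a covariate removed it too. With only the 2 groups compared, Slc30a8 was called in its place (adjusted p = 0.0292, limma). Some markers of other islet cells were lower too. The 5 δ cell markers summed to 808 to 964 RPKM in Diabetic, against 2865 to 4395 RPKM in Control, and 2 of 4 tested were called lower (Sst and Ghsr, −2.15 and −0.69). The 2 PP cell markers summed to 1453 to 3078 RPKM in Diabetic, against 4909 to 5882 RPKM in Control, with Ppy called lower (−1.70). Of 9 β cell markers Slc2a2 and Ucn3 were lower (−2.12 and −1.37). Of 8 α cell markers limma and voom called 0, and 1 in each direction had an unadjusted p under 0.05 with limma. The part of these cells in the levels of the exocytosis genes was not tested.

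**Figure D1:**
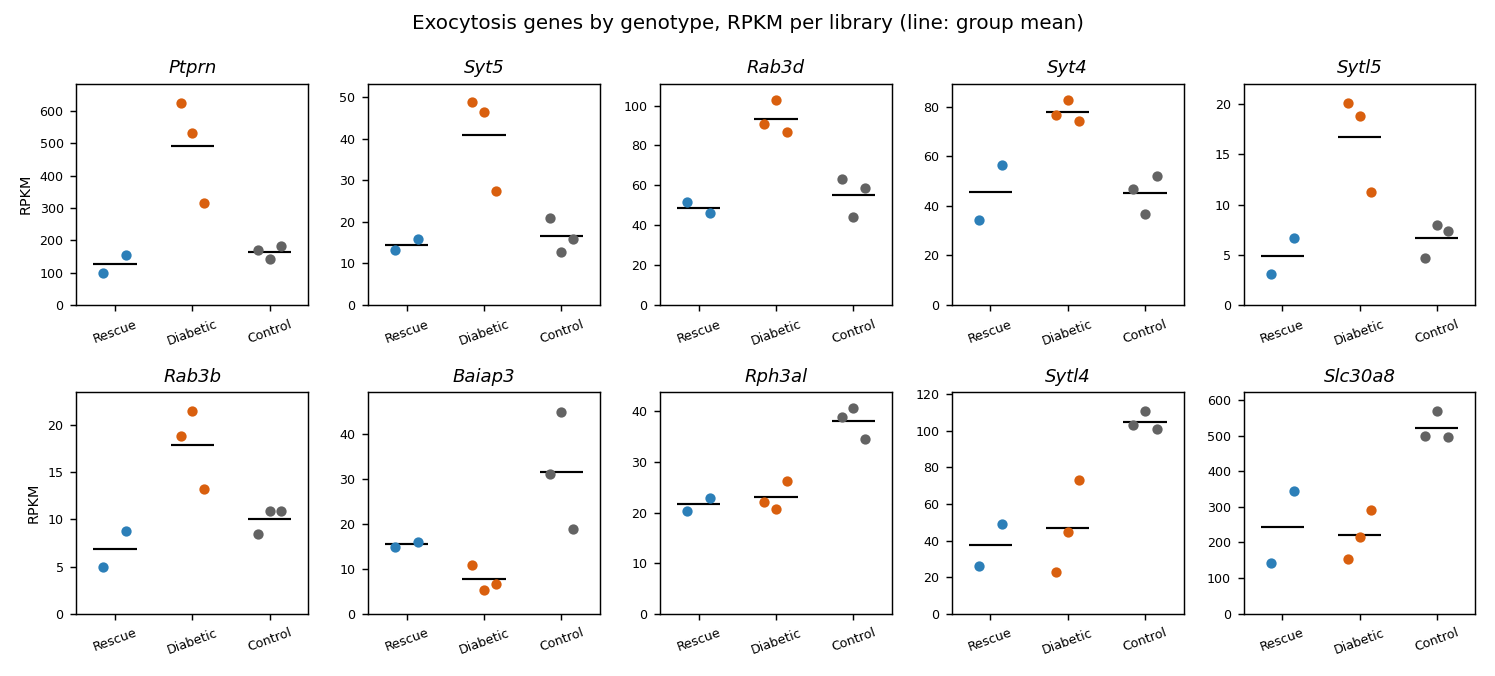
RPKM of 10 exocytosis genes in each library, with Rescue, Diabetic and Control from left to right, 1 point per library and a line at the group mean. The 3 Diabetic values of Ptprn, 317 to 625 RPKM, lie above all 5 other libraries, and the 3 Control values of Slc30a8, 496 to 570 RPKM, lie above the other 5.

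Several genes had differences as large as the called ones without passing the adjusted threshold. Slc30a8 encodes ZnT8, the transporter that loads zinc into the insulin granule. Slc30a8 had 153, 215 and 290.5 RPKM in Diabetic, against 498, 570.2 and 496 RPKM in Control, with no overlap and a log2 difference of −1.29 (SE 0.33, adjusted p = 0.0690). Sytl4 encodes granuphilin, the RAB27A effector that docks insulin granules on syntaxin, and was the most abundant RAB effector. Sytl4 had 23.0, 45.0 and 73.2 RPKM in Diabetic, against 103, 111 and 101 RPKM in Control, with no overlap and a log2 difference of −1.29 (SE 0.38, adjusted p = 0.0980). Its paralog Sytl5, another RAB27 effector, had the opposite sign. Sytl5 had 20.1, 18.8 and 11.2 RPKM in Diabetic, against 4.72, 7.94 and 7.36 RPKM in Control, and a log2 difference of 1.2 (SE 0.30, adjusted p = 0.0666). Syt4, which in mouse β cells is known to lower the calcium sensitivity of release as they mature, had 76.6, 82.6 and 74.4 RPKM in Diabetic, against 46.7, 36.9 and 52.0 RPKM in Control. Its log2 difference was 0.78 (SE 0.20, adjusted p = 0.0676). Rab3b, a RAB3 GTPase of secretory vesicles, had 18.8, 21.5 and 13.3 RPKM in Diabetic, against 8.48, 10.9 and 10.9 RPKM in Control, a log2 difference of 0.75 (SE 0.23, adjusted p = 0.108). These 5 genes were picked for their values, and in each the groups did not overlap. Of all 36 tested members 9 had every Diabetic library above every Control library, beside 10.2% of all tested genes, and 14 had every Diabetic library below, beside 21.5% of all tested genes. Stxbp5l, which passed the filter only through Control, is among these 14.

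The differences of Ptprn, Baiap3, Slc30a8 and Sytl4 were also taken at each level of nuclear-retained RNA. Their sign could not change, because Diabetic and Control libraries did not overlap for these genes, so only the sizes are described. Among libraries with the high level (Diabetic 1 against Control 1 and 3) the log2 difference was 2.0 for Ptprn, and among those with the low level (Diabetic 2 and 3 against Control 4) it was 1.18. For Baiap3 the 2 values were −1.70 and −1.50, and for Slc30a8 −1.79 and −0.99. Of these 4 genes Sytl4 differed most between the levels, with −2.17 and −0.81. Rimbp2, a scaffold that links RIM proteins to calcium channels, varied with that level within Diabetic and Control. Rimbp2 had 20.7 and 32.5 RPKM in Rescue, 63.1, 22.2 and 20.3 RPKM in Diabetic and 59.4, 60.2 and 28.2 RPKM in Control, so that the high values were those of Diabetic 1 and Control 1 and 3. Beside Rab3d, the 13 acinar markers summed to 337, 460.0 and 91.7 RPKM in Diabetic and 173, 134.2 and 134.0 RPKM in Control, and 1 of the 13 was at 0 in every library. Diabetic 3 had the lowest of these acinar sums and 86.9 RPKM of Rab3d. The part of acinar cells in the level of Rab3d was not tested. Of the 9 acinar markers tested, both limma and voom (limma on whole reads recovered from the RPKM steps, added after the data were seen) called 0 in this comparison, 1 had an unadjusted p under 0.05 with a higher value and 0 with a lower value, and the median log2 difference was 0.73. Rab3d itself lost its call with voom, quantile normalization, no filter, a replicate block or the nuclear-retained RNA covariate.

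Promoter sequence was looked at for genes called in opposite directions in Diabetic islets, picked after their values were seen. RefSeq windows on GRCm38.p6, from 250 bases before to 50 after a start site, were matched for 28 of the 39 genes (31 windows). They are shown for Ptprn and Rab3d, which rose in Diabetic islets, and for Baiap3 and Rph3al, which fell, as the 250 bases before the start site in the direction of transcription. Capitals mark GGACAG on either strand (CTGTCC when read on the other strand), 6 letters of the RE1 element bound by the neuronal gene repressor REST. The windows are chr1:75264209-75264458 for Ptprn, chr9:21918184-21918433 for Rab3d, chr17:25256365-25256614 for Baiap3 and chr11:75925892-75926141 for Rph3al, all on the minus strand.
Ptprn: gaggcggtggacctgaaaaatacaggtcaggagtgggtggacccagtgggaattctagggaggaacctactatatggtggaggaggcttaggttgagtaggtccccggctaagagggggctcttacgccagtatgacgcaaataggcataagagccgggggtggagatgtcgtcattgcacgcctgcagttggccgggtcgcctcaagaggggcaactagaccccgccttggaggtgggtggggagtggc
Rab3d: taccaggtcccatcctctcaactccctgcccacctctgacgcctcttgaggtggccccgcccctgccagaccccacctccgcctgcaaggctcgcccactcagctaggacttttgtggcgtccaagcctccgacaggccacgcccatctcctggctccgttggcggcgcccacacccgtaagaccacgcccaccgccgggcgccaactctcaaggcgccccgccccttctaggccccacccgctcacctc
Baiap3: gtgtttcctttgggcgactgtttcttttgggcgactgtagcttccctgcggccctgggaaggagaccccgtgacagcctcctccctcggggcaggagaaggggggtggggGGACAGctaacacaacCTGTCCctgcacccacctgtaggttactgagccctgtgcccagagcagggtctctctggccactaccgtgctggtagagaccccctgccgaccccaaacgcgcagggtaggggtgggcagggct
Rph3al: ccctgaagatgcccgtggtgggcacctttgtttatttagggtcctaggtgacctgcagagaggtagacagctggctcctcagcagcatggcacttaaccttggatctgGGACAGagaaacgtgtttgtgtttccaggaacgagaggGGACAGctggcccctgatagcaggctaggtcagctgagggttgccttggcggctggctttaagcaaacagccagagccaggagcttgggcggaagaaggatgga
The printed bases of Ptprn and Rab3d held no GGACAG, and those of Baiap3 and Rph3al held 2 each. The window of Stxbp5l, also called lower but not printed, held none, and Syt5, also called higher, had no matched window. The share of all windows with 2 matches was not computed. GC made up 59.2%, 69.2%, 64.4% and 56.4% of the bases in the order printed. Over the full windows GGACAG stood in 9 of the 31 (29.0%), against 22.2% of the 32851 windows of the table. These 9 were windows of Syt11, Rab27a, Rimbp2, Unc13a, Baiap3, Cadps, Rph3al, Ptprn2 and Exph5. TGACGT, of the cAMP response element, stood in 2 of the 31 windows (6.45%, in Rab3a and Napa), against 7.51% of all windows, and the forkhead core GTAAACA in 0 of 31, against 3.65% of all. The matches are a description of letters in these windows, and binding was not measured.

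Rescue islets had lower levels of many of these genes than Diabetic islets. Ptprn led again. It had 100.2 and 153 RPKM in Rescue, against 625, 532 and 317 RPKM in Diabetic, with Rescue 2 inside and Rescue 1 below the Control range. The log2 difference was −1.92 (SE 0.30, adjusted p = 0.00306). Ptprn2 encodes phogrin, the paralog of IA-2 in the granule membrane. Ptprn2 had 18.7 and 62.0 RPKM in Rescue, against 113.5, 111 and 112 RPKM in Diabetic, which gave a difference of −1.68 on the log2 scale (SE 0.40, adjusted p = 0.0153). In Control it had 86.5, 110.8 and 106.9 RPKM, so that the Diabetic libraries lay close to the upper Control values and both Rescue libraries lay below.

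Among the synaptotagmins Syt5 had 13.3 and 15.8 RPKM in Rescue, against 49.0, 46.6 and 27.4 RPKM in Diabetic (log2 difference −1.40, SE 0.28, adjusted p = 0.00812). Syt4 had 34.2 and 56.6 RPKM in Rescue, against 76.6, 82.6 and 74.4 RPKM in Diabetic (log2 difference −0.81, SE 0.22, adjusted p = 0.0286). Syt13 had 216 and 279 RPKM in Rescue, against 352, 396 and 389 RPKM in Diabetic (log2 difference −0.62, SE 0.15, adjusted p = 0.0186). For each of these 3 genes both Rescue libraries were below all Diabetic libraries. Here and below, non-overlap of Rescue is a description, and its share over all tested genes was not computed. Syt11, which does not bind calcium and is known to restrain vesicle traffic in neurons, ran the other way. Syt11 had 16.9 and 12.8 RPKM in Rescue, against 7.12, 8.86 and 9.49 RPKM in Diabetic (log2 difference 0.74, SE 0.22, adjusted p = 0.0350).

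Of 4 RAB GTPases tested 3 were lower in Rescue than in Diabetic, and of 6 RAB effectors 3 were, beside 5.8% of all tested genes. Rab3d had 51.5 and 46.2 RPKM in Rescue, against 90.6, 102.8 and 86.9 RPKM in Diabetic (log2 difference −0.92, SE 0.18, adjusted p = 0.00650). Rab3b had 4.97 and 8.72 RPKM in Rescue, against 18.8, 21.5 and 13.3 RPKM in Diabetic (log2 difference −1.28, SE 0.26, adjusted p = 0.00861). Rab27a, the main RAB of insulin granule docking, had 40.0 and 62.4 RPKM in Rescue, against 79.3, 87.8 and 77.8 RPKM in Diabetic (log2 difference −0.69, SE 0.18, adjusted p = 0.0235). Both Rescue libraries lay below every Diabetic library for these 3 genes, Rescue 2 being the nearer for Rab3b and Rab27a. The fourth, Rab3a, had 37.8 and 42.1 RPKM in Rescue, against 52.9, 50.9 and 50.3 RPKM in Diabetic, and narrowly missed the threshold (log2 difference −0.35, adjusted p = 0.0544). The effectors bind the active form of these GTPases and link the granule to the membrane. Of them, Sytl5 had 3.09 and 6.66 RPKM in Rescue, against 20.1, 18.8 and 11.2 RPKM in Diabetic (log2 difference −1.62, SE 0.34, adjusted p = 0.00968). Rims2, the RIM protein that ties RAB3 to priming and to calcium channels, had 2.64 and 5.0 RPKM in Rescue, against 8.02, 6.08 and 6.92 RPKM in Diabetic (log2 difference −0.77, SE 0.24, adjusted p = 0.0391). Exph5, whose product Slac2-b binds RAB27, had 1.48 and 2.58 RPKM in Rescue, against 3.82, 3.99 and 3.31 RPKM in Diabetic (log2 difference −0.66, SE 0.19, adjusted p = 0.0321). These 3 effectors showed no overlap between the groups either, and Rescue 2 was again the nearer of the pair to the Diabetic range.

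Of 6 priming factors 2 fell, beside 5.8% of all tested genes, and both were CAPS proteins, which ready dense-core granules for fusion. Cadps had 2.92 and 6.31 RPKM in Rescue, against 7.95, 8.29 and 8.42 RPKM in Diabetic (log2 difference −0.78, SE 0.25, adjusted p = 0.0444). Cadps2 had 0.579 and 1.46 RPKM in Rescue, against 2.97, 2.52 and 2.66 RPKM in Diabetic (log2 difference −0.91, SE 0.22, adjusted p = 0.0175). Baiap3 had 14.8 and 16.0 RPKM in Rescue, against 10.8, 5.38 and 6.69 RPKM in Diabetic, without overlap and without passing the threshold (log2 difference 0.98, SE 0.36, adjusted p = 0.0703). The MUNC13 genes Unc13a and Unc13b had log2 differences of −0.28 and −0.32, with adjusted p of 0.600 and 0.378.

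Of the 7 SNAREs tested 1 was called, and it was higher, beside 24% of all tested genes. Stx4a encodes syntaxin 4, a plasma membrane syntaxin found in most cell types. Stx4a had 21.7 and 15.7 RPKM in Rescue, against 9.98, 5.31 and 6.20 RPKM in Diabetic (log2 difference 1.30, SE 0.29, adjusted p = 0.0121). Vamp2, the most abundant SNARE here, had 43.2 and 54.5 RPKM in Rescue, against 55.8, 39.8 and 44.7 RPKM in Diabetic, with overlapping ranges (log2 difference 0.07, SE 0.18, adjusted p = 0.806). Of the 4 SNARE regulators and recycling factors tested limma called 0, and 0 had an unadjusted p under 0.05. With voom, 1 of them, Stxbp5l, was lower. Cplx2, a complexin that clamps and then promotes fusion, had 149.8 and 130.5 RPKM in Rescue, against 109.1, 115 and 146 RPKM in Diabetic (log2 difference 0.19, SE 0.18, adjusted p = 0.425). Markers of several other cell types were also higher in Rescue. Between Rescue and Diabetic 8 of 10 lymphocyte markers and 5 of 7 macrophage markers tested were called higher, with medians of 3.21 and 1.82 on the log2 scale. So were 4 of 8 fibroblast and 2 of 8 endothelial markers, with medians of 1.27 and 0.39. Some markers of other islet cells were lower. In Rescue against Diabetic both PP cell markers, 2 of 4 δ cell, 2 of 8 α cell and 1 of 9 β cell markers tested (Iapp) were called lower, and 1 δ cell marker (Hhex) was called higher. The part of these cell types in the levels of the exocytosis genes was not tested.

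In all, 13 of the 36 tested genes were lower in Rescue than in Diabetic, beside 5.8% of all tested genes. The 2 called higher stood beside 24% of all tested genes. The median log2 difference was −0.34 over the 36 and 0.24 over all tested genes. The median over all genes was 0.03 with median-of-ratios scaling and −0.07 with quantile normalization, where the median of the 36 was −0.55 and −0.56. With the nuclear-retained RNA level as a covariate 7 were lower, and Ptprn2 lost its call (adjusted p = 0.0626, limma) while Ptprn kept its own. At the high level alone, where Diabetic 1 was the single Diabetic library, Rescue minus Diabetic was −2.33 for Ptprn and −1.70 for Ptprn2. The count depended on Rescue 1. Without it limma called 3 genes lower (Ptprn, Ptprn2 and Rab3d) and 0 higher, while 11 had an unadjusted p under 0.05 with lower values and 1 with higher values. Without Diabetic 2 the counts were 7 lower and 1 higher, and without Control 1 they were 10 and 1. Among the fits with 1 library left out, Stx4a, Syt5, Rab3b, Sytl5 and Cadps2 lost their calls only without Rescue 1, and Syt13 and Rab27a without Rescue 1 or Diabetic 2. Syt4 lost its call without Rescue 1, Diabetic 2 or Diabetic 3, Syt11 without Rescue 1, Diabetic 1, Diabetic 2 or Control 1, and Exph5 without any of these 4 or Control 3. Rims2 and Cadps kept theirs, among these fits, only without Rescue 2. With all libraries kept, Cadps2 lost its call with a replicate block or the nuclear-retained RNA covariate. Syt11 lost its call with median-of-ratios or endocrine scaling, quantile normalization, only the 2 groups compared or the block. With endocrine scaling the 2 called higher were Stx4a and Baiap3 (adjusted p = 0.0408 for Baiap3, limma). Exph5, Rims2 and Cadps lost theirs with only the 2 groups, the block or the covariate. Rims2 and Cadps also did so with no filter, and Cadps with endocrine scaling. Syt4 lost its own with only the 2 groups or the covariate. Syt13 and Rab27a lost theirs with endocrine scaling, only the 2 groups compared or that covariate, and Syt13 also with the replicate block. In 31 of the 36 genes Rescue 1 was below Rescue 2, which was so for 62.2% of all tested genes.

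**Figure D2:**
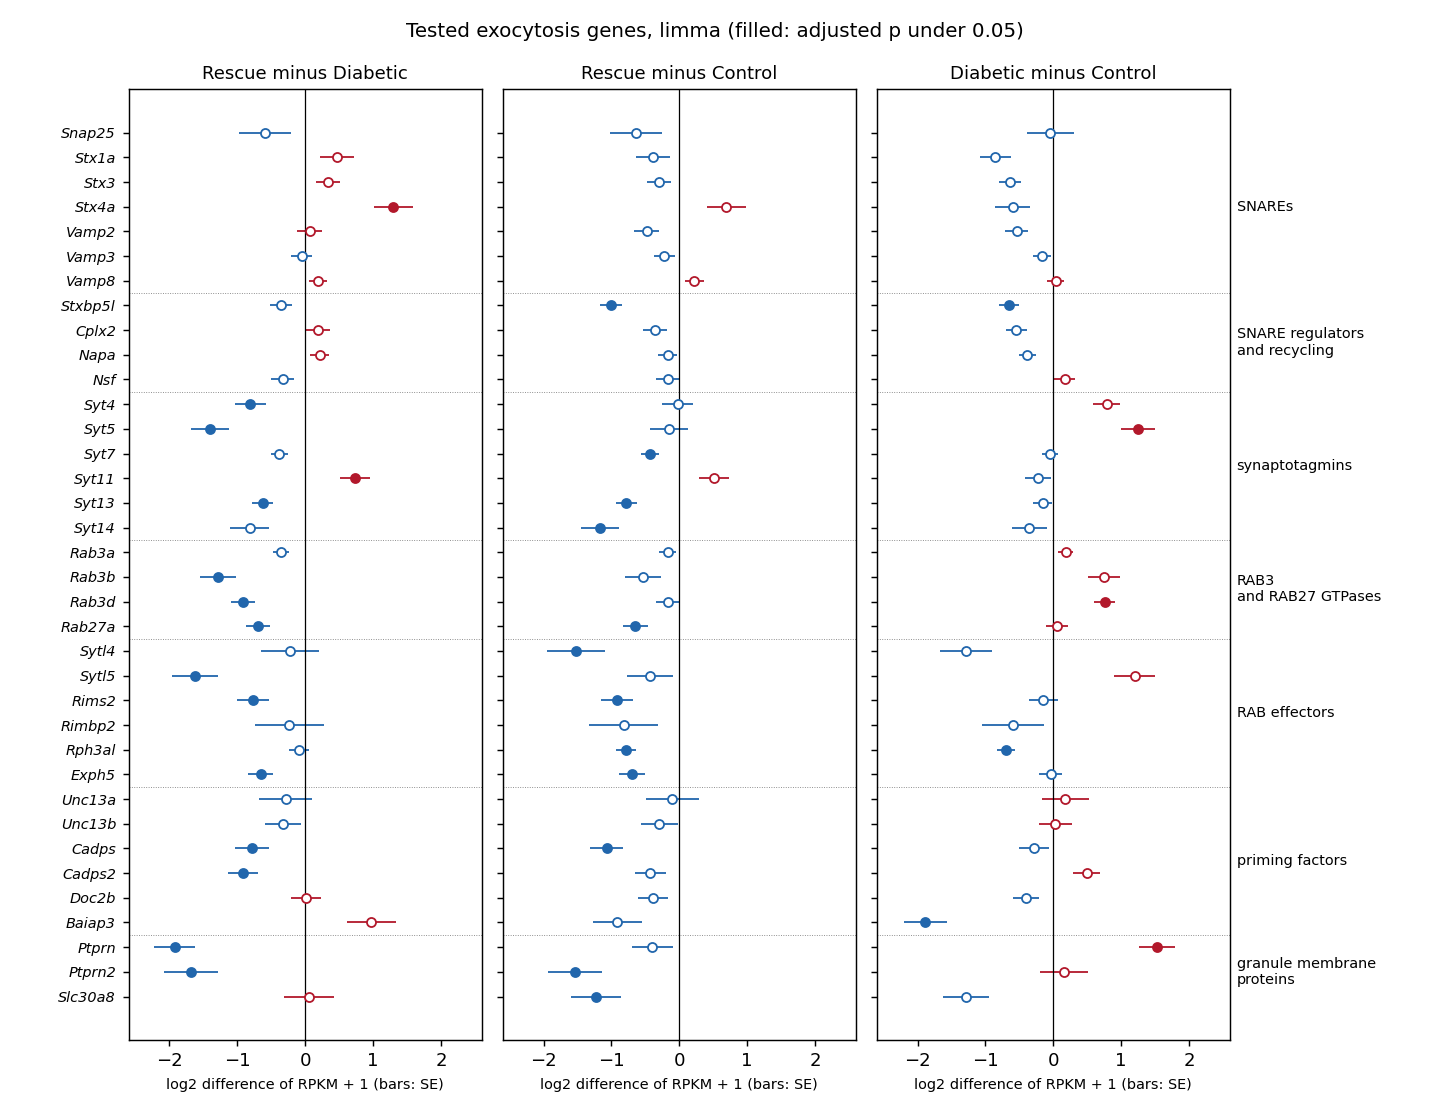
Log2 differences of RPKM + 1 for the 36 tested exocytosis genes in the 3 comparisons, grouped by role, with bars for 1 SE. Filled points have an adjusted p under 0.05. Rescue minus Diabetic has 13 filled points left of 0 and 2 right of it, Rescue minus Control 12 and 0, and Diabetic minus Control 3 and 3.

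Rescue islets also had lower levels of some of these genes than Control islets, where 5.48% of all tested genes were called lower. By role these were 4 of 6 RAB effectors, 2 of 3 granule membrane proteins, 3 of 6 synaptotagmins, 1 of 4 RAB GTPases, 1 of 6 priming factors and 1 of 4 SNARE regulators (Stxbp5l). This comparison shares its Rescue libraries with the one before and its Control libraries with the first. Among the RAB effectors Sytl4 had 26.3 and 49.2 RPKM in Rescue, against 103, 111 and 101 RPKM in Control (log2 difference −1.52, SE 0.43, adjusted p = 0.0342), with the Rescue pair inside the Diabetic range of 23.0 to 73.2 RPKM. Rph3al had 20.3 and 22.9 RPKM in Rescue, against 38.8, 40.6 and 34.6 RPKM in Control (log2 difference −0.79, SE 0.15, adjusted p = 0.00566). Both are genes of granule docking whose Control libraries stood above all 5 others. Rims2 had 2.64 and 5.0 RPKM in Rescue, against 6.72, 9.10 and 7.82 RPKM in Control (log2 difference −0.92, SE 0.23, adjusted p = 0.0230). Exph5 had 1.48 and 2.58 RPKM in Rescue, against 3.50, 3.92 and 4.07 RPKM in Control (log2 difference −0.69, SE 0.19, adjusted p = 0.0298). The groups did not overlap for any of these 4 effectors. Rab27a was the RAB GTPase called lower. It had 40.0 and 62.4 RPKM in Rescue, against 77.4, 79.3 and 79.8 RPKM in Control (log2 difference −0.65, SE 0.18, adjusted p = 0.0346).

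Among granule membrane proteins Slc30a8 had 142 and 346 RPKM in Rescue, against 498, 570.2 and 496 RPKM in Control (log2 difference −1.23, SE 0.37, adjusted p = 0.0447). Rescue 2 was the higher of the pair, and the 2 values spanned the Diabetic range of 153 to 290.5 RPKM. Ptprn2 had 18.7 and 62.0 RPKM in Rescue, against 86.5, 110.8 and 106.9 RPKM in Control (log2 difference −1.53, SE 0.40, adjusted p = 0.0245). Ptprn had 100.2 and 153 RPKM in Rescue, against 170.5, 141 and 181 RPKM in Control, with overlap and a log2 difference of −0.40 (SE 0.30, adjusted p = 0.379).

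Of 6 synaptotagmins 3 were lower in Rescue than in Control, beside 5.48% of all tested genes. Syt13 had 216 and 279 RPKM in Rescue, against 396, 443 and 427 RPKM in Control (log2 difference −0.78, SE 0.15, adjusted p = 0.00688). Syt14, an atypical form without calcium binding, had 1.92 and 5.28 RPKM in Rescue, against 7.51, 9.10 and 9.36 RPKM in Control (log2 difference −1.17, SE 0.29, adjusted p = 0.0188). Syt7, a calcium sensor of high affinity that serves insulin and glucagon release, had 40.1 and 42.6 RPKM in Rescue, against 59.7, 58.8 and 50.5 RPKM in Control (log2 difference −0.43, SE 0.13, adjusted p = 0.0421). Syt7 lost its sign with the endocrine scaling (log2 difference 0.006, adjusted p = 0.989). Cadps had 2.92 and 6.31 RPKM in Rescue, against 8.94, 11.7 and 10.3 RPKM in Control (log2 difference −1.07, SE 0.25, adjusted p = 0.0147).

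Stxbp5l, tested here only because it was high in Control, was at 0.0485 and 0.0677 RPKM in Rescue (5 and 7 reads), against 1.11, 1.42 and 0.866 RPKM in Control (143, 154 and 105 reads). The log2 difference was −1.0 (adjusted p = 0.00159 with no filter), which understates the change because 1 was added to RPKM values that were themselves near or below 1. Read beside the Diabetic libraries, at 23 to 54 reads, the Rescue libraries were the lowest of the 3 genotypes for this inhibitor of fusion.

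**Figure D3:**
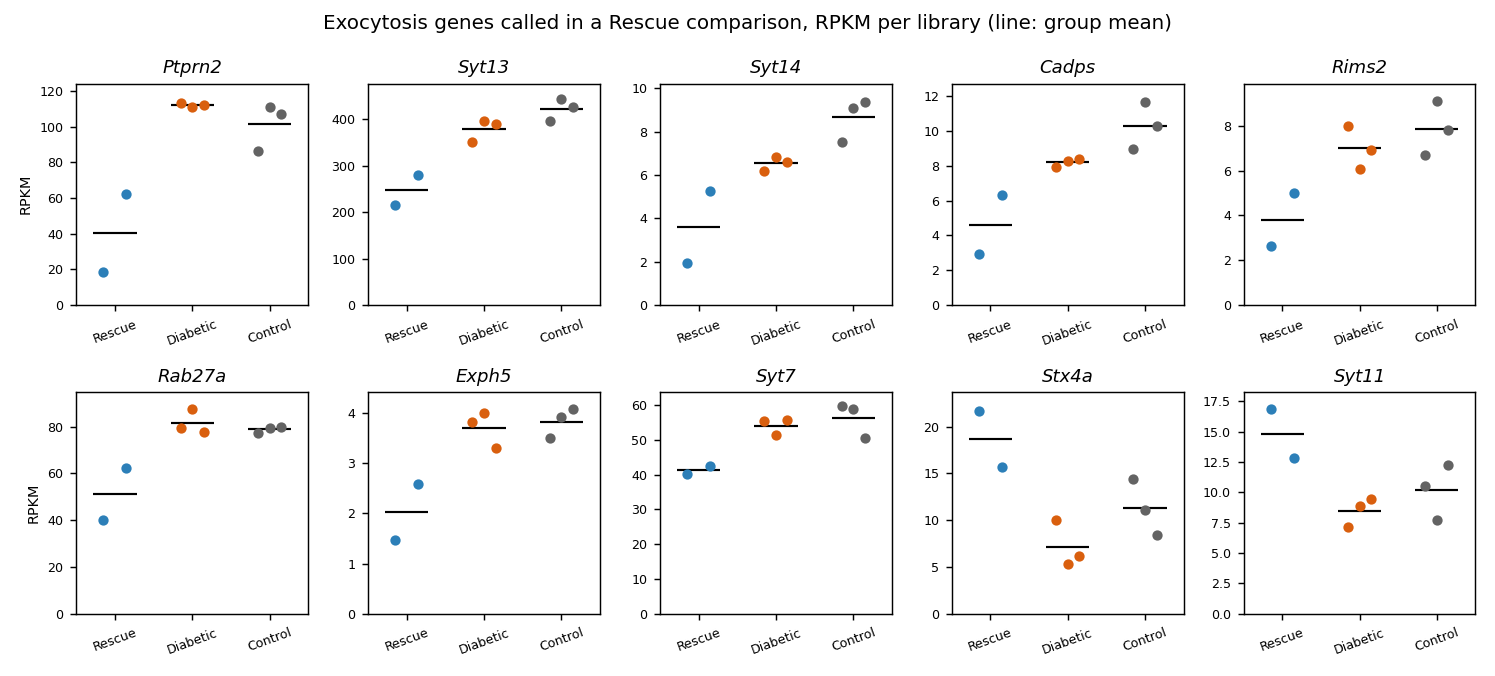
RPKM of 10 exocytosis genes called in a comparison with Rescue, in each library, with Rescue, Diabetic and Control from left to right, 1 point per library and a line at the group mean. In the first 8 panels both Rescue libraries lie below every Diabetic and Control library, and for Stx4a both lie above, from 15.7 to 21.7 RPKM. These genes were shown because they were called, and the share of all tested genes with such a pattern was not computed.

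In Rescue against Control islets 12 of the 36 tested genes were lower (11 of 35 without Stxbp5l), beside 5.48% of all tested genes. Limma called 0 of the 36 higher, beside 18% of all tested genes, as did voom, and 2 had an unadjusted p under 0.05 with higher values (Stx4a and Syt11). The median log2 difference was −0.43 over the 36 and 0.08 over all tested genes. With endocrine scaling the lower count was 2 (Stxbp5l and Ptprn2), beside 109 of all 12594 tested genes, and the medians were −0.06 and 0.44. Quantile normalization gave 19 lower, beside 2483 of all 12594, in place of 690 in the main fit. Without Rescue 1 the lower count was 4, without Control 3 it was 3, without Control 4 it was 6, and without Diabetic 2 or Control 1 it was 7 in each. Syt13 and Rph3al were called with any 1 of the 8 libraries left out, and lost their calls with endocrine scaling (adjusted p = 0.402 and 0.320). Ptprn2 lost its call without Control 3 or 4, Cadps without Rescue 1 or Control 3, and Syt14 and Rims2 without Rescue 1, Control 3 or Control 4. Rab27a, Sytl4, Exph5 and Slc30a8 lost theirs without Rescue 1, Diabetic 2 or any Control library, and Syt7 kept its own only without Rescue 2 or Control 4. Other islet cell markers moved with these genes. The 2 PP cell markers summed to 682 and 729 RPKM in Rescue, against 4909 to 5882 RPKM in Control, with both called lower. The 5 δ cell markers summed to 333 to 535.5 RPKM in Rescue, against 2865 to 4395 RPKM in Control, with 3 of 4 tested called lower. Of 8 α cell markers 3 were lower and of 9 β cell markers 2 were (Slc2a2 and G6pc2). All 10 lymphocyte and all 8 fibroblast markers were higher. The part of these cell types in the levels of the exocytosis genes was not tested.

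**Figure D4:**
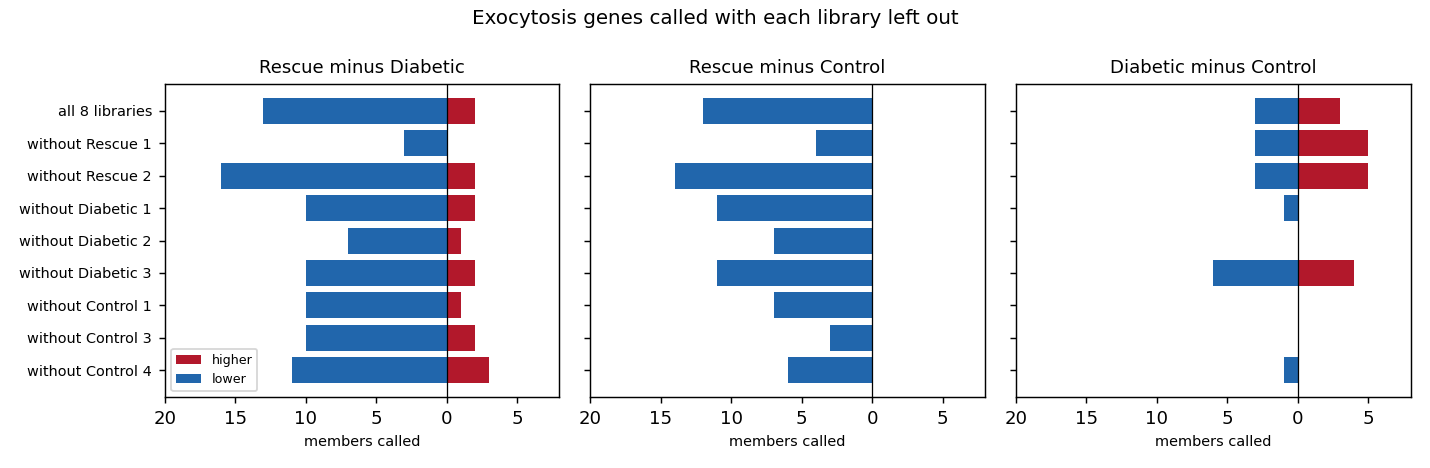
Number of exocytosis genes called higher (right of 0) and lower (left of 0) in each comparison with all 8 libraries and with each library left out in turn. Without Rescue 1 the lower count of Rescue minus Diabetic was 3 in place of 13, and without Diabetic 2, Control 1 or Control 3 Diabetic minus Control had no calls.

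A further 14 tested genes were called in no comparison. In the SNARE role these were Snap25, Stx1a, Stx3, Vamp2, Vamp3 and Vamp8. Snap25 had 9.54 and 19.0 RPKM in Rescue, 34.7, 19.7 and 13.1 RPKM in Diabetic and 24.4, 21.2 and 19.3 RPKM in Control, so that the Control values lay inside the Diabetic range. Stx1a, the syntaxin of insulin granule fusion, had 2.42 and 3.21 RPKM in Rescue, 2.36, 1.43 and 1.55 RPKM in Diabetic and 4.35, 5.14 and 2.74 RPKM in Control. Its Diabetic minus Control log2 difference of −0.85 had an adjusted p of 0.0710. In Diabetic against Control limma and voom called 0 of the 7 SNAREs, 4 had an unadjusted p under 0.05 with lower values and 0 with higher values, and the median log2 difference was −0.54, beside −0.12 for all tested genes. The share of all tested genes at that unadjusted threshold was not computed. Vamp2 had 55.8, 39.8 and 44.7 RPKM in Diabetic, against 71.7, 72.8 and 60.0 RPKM in Control, without overlap (log2 difference −0.54, SE 0.16, adjusted p = 0.101). Cplx2 had 109.1, 115 and 146 RPKM in Diabetic, against 175, 160.0 and 205.5 RPKM in Control, also without overlap (log2 difference −0.55, SE 0.16, adjusted p = 0.0907). Stx1a, Stx3 and Napa also had every Diabetic library below every Control library, short of a call. Stx3, a syntaxin of granule to granule fusion, had 5.61 and 5.86 RPKM in Rescue, 4.89, 3.71 and 4.46 RPKM in Diabetic and 8.62, 7.56 and 5.89 RPKM in Control (Diabetic minus Control −0.63, adjusted p = 0.0689). Vamp3 and Vamp8, VAMPs of endosomes and of newcomer granules, stayed between 18.9 and 31.4 RPKM in every library. The recycling factor gene Napa (α-SNAP) had 54.0 and 54.7 RPKM in Rescue, 47.4, 42.9 and 50.3 RPKM in Diabetic and 65.1, 65.6 and 54.3 RPKM in Control (Diabetic minus Control −0.39, adjusted p = 0.117). Its partner Nsf ranged from 7.76 to 12.7 RPKM. Rab3a ranged from 37.8 to 52.9 RPKM, Unc13a from 4.0 to 13.2 RPKM, Unc13b from 1.39 to 3.29 RPKM, and the calcium sensor Doc2b from 0.448 to 1.63 RPKM.

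Beyond the 39, 85 other genes of vesicle traffic and fusion were tested as 5 lists. In Diabetic against Control 1 of the 85 was higher and 2 lower, beside 1.53% and 2.44% of all tested genes, with a median of −0.11 (all genes −0.12). In Rescue against Diabetic 8 were higher and 13 lower, beside 24% and 5.8% of all tested genes, with a median of −0.08 (all genes 0.24). In Rescue against Control 6 were higher and 7 lower, beside 18% and 5.48% of all tested genes, with a median of −0.15 (all genes 0.08). Of 28 other SNAREs and SNARE-binding proteins, Stx11 and Vamp5 were higher in Rescue than in Diabetic (log2 differences 1.44 and 1.33) and Stxbp6 was lower (−1.25). Stx11 serves the killing granules of lymphocytes. It had 2.96 and 3.11 RPKM in Rescue, against 0.344, 0.972 and 0.241 RPKM in Diabetic. Of 8 other C2 domain proteins Unc13d, also of lymphocyte granules, and Syt15 were higher in Rescue than in Diabetic (1.94 and 1.11). Syt9, a calcium sensor of insulin release, was lower (−0.76), with 3.49 and 4.93 RPKM in Rescue, against 8.46, 6.94 and 7.93 RPKM in Diabetic. Of 21 other RAB cycle and active zone genes Mlph, a RAB27 effector best known from melanosomes, was lower in Diabetic. Mlph had 0.676, 0.902 and 0.917 RPKM in Diabetic, against 2.26, 3.38 and 2.90 RPKM in Control (log2 difference −1.06, adjusted p = 0.0165). In Rescue against Diabetic the RAB exchange factor gene Rab3il1 and the liprin gene Ppfia4 were higher (0.86 and 0.71) and Rab3gap1, of the RAB3 GTPase activating complex, was lower (−0.69). Rapgef4, the cAMP sensor EPAC2 that binds RIM2, was lower in Rescue than in Control (−0.70), with 11.3 and 17.5 RPKM in Rescue, against 23.8, 23.2 and 23.7 RPKM in Control. In Rescue against Control, Stx11 and Vamp5 had log2 differences of 1.84 and 1.41, Unc13d and Syt15 of 2.25 and 1.30, and Rab3il1 and Ppfia4 of 0.79 and 0.71, all called. Of the 9 exocyst genes, which tether vesicles before docking, Exoc6b alone was called, lower in Rescue than in Diabetic (−0.67). In Diabetic against Control limma and voom called 0 of the 9, and 0 had an unadjusted p under 0.05.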

How the data were processed

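RNA of 8 islet libraries was sequenced on an Illumina HiSeq with paired reads. Per the paper's methods and the submitters' processing notes, the authors aligned reads with STAR to mm10, counted them per gene with HTSeq and used edgeR for normalization and tests. The sources used here give neither their versions nor whether counting used strand. The deposited values are the authors' RPKM values, 1 per gene and library. RPKM is not a count, so limma 3.58.1 (R 4.3.3, empirical Bayes with a trend, 1 mean per genotype, no replicate block) was fitted on log2(RPKM + 1) for the genes that reached 1 RPKM in 2 or more libraries. The edgeR counts model of the study was not used. RPKM values of low genes fall on steps of 1 read, which gave whole reads within 0.001 for 18126 of 18126 genes above 0. A gene above 0 in only 1 library always has such a solution, and the smallest solution was taken. That count therefore does not test the recovered reads. These reads gave the depths and an alternative test with limma's voom, chosen after seeing the data. Standard errors (SE) are limma's.

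Members of the list were named in full when called in any comparison or when the most abundant of their role, and others were given as ranges. Of the pathway lists up to 3 called genes with the largest difference were named per list and comparison. A gene that this rule names is not reported here. The members and lists were chosen with earlier results of these data known. Other genes beside these rules (Slc30a8, Syt4 and others in Diabetic against Control, Rimbp2, Snap25, Stx1a, Phb) were described after their values were seen. Marker lists not given in the results were duct, Schwann and neuron, and mast and platelet cells, and endothelial markers were given there for Rescue against Diabetic alone. In Rescue against Control 1 of 3 duct markers was lower, 4 of 8 endothelial and 1 of 4 Schwann and neuron markers were higher, and of 3 mast and platelet markers limma and voom called 0 (0 at an unadjusted p under 0.05). Coordinates are from GENCODE M21 and RefSeq on GRCm38, the assembly of mm10. The fit was tested on simulated data. Alternatives were a pseudocount of 0.1, no filter, a mean of at least 5 RPKM, median-of-ratios, quantile and endocrine scaling (Neurod1, Nkx2-2, Isl1, Pax6, Insm1, Rfx6, Myt1), only the 2 groups compared, a replicate block, a nuclear-retained RNA covariate and each library left out. Figures used matplotlib 3.10.9.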

Additional observations from a re-analysis of the deposited data

How the results depend on the processing

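Of the 33 calls of single exocytosis genes in the 3 comparisons, tried under up to 10 alternatives that keep every library (325 values), 245 kept direction and threshold, 79 lost the threshold and 1 changed sign (Syt7 in Rescue against Control with endocrine scaling, 0.006). With each library left out (264 values), 163 kept the call, 101 lost it and 0 changed sign. In Diabetic against Control the higher count of 3 was 0 with no filter (8 at an unadjusted p under 0.05), 6 with endocrine scaling and 5 with only the 2 groups, and the lower count of 3 was 6 with quantile normalization and 1 with endocrine scaling. Over all tested genes the main fit called 193 higher and 307 lower. Endocrine scaling gave 693 and 69 there, quantile normalization 308 and 190, and only the 2 groups 298 and 465. In Rescue against Diabetic the higher count of 2 was 1 with median-of-ratios scaling, quantile normalization and only the 2 groups, and the lower count of 13 was 7 with only the 2 groups and 7 with the nuclear-retained RNA covariate. Over all tested genes the main fit called 3022 higher and 730 lower. Median-of-ratios scaling gave 2065 and 1724 there, and quantile normalization 1805 and 2365. Only the 2 groups gave 1985 and 289, and the covariate 2024 and 473. In Rescue against Control the higher count of 0 was 2 with endocrine scaling, and the lower count of 12 was 19 with quantile normalization, 2 with endocrine scaling and 7 with only the 2 groups. Over all tested genes the main fit called 2268 higher and 690 lower. Endocrine scaling gave 3858 and 109 there, quantile normalization 1804 and 2483, and only the 2 groups 2171 and 441. The cause was not tested. Voom on recovered reads, chosen after seeing the data, gave 2 higher and 3 lower, 2 and 14, and 0 and 11 in the same order of comparisons. Leaving out 1 library gave 0 to 5 higher and 0 to 6 lower in Diabetic against Control, 0 to 3 and 3 to 16 in Rescue against Diabetic, and 0 to 0 and 3 to 14 in Rescue against Control, and a lone Rescue library was assumed to vary like the other groups.

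Correlations across genes between the deviations of same-numbered libraries were 0.08, 0.33, 0.07, −0.26 and 0.37. They cannot decide whether the numbers pair libraries, because the 2 Rescue libraries deviate by equal and opposite amounts. Differently numbered libraries also reached 0.45 (Diabetic 1 and Control 3) and 0.51 (Diabetic 2 and Control 4). Per the paper's methods the islet RNA-Seq used littermates from several litters. The labels give no litter for a library, so no pairing was assumed. With a replicate block the counts were 0 higher and 0 lower in Diabetic against Control (6 and 10 at an unadjusted p under 0.05), 1 and 8 in Rescue against Diabetic, and 0 and 2 (Stxbp5l and Ptprn2) in Rescue against Control, where Syt13 and Rph3al were among the calls lost. Over all genes the share of calls that were higher was 38.6% in Diabetic against Control, and 67.0%, 61.8% and 90.9% with median-of-ratios, quantile and endocrine scaling. In Rescue against Diabetic it was 80.5%, and 54.5% and 43.3% with median-of-ratios scaling and quantile normalization, and in Rescue against Control 76.7%, and 60.9%, 42.1% and 97.3% with the same 3 scalings. With a mean of at least 5 RPKM, 30 of the 39 genes were tested, so 6 had no value there. Groups of 2 and 3 libraries limit every comparison.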

Other observations

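Other membrane proteins of secretory vesicles, outside the docking and exocytosis list, included a gene with a pattern of values like that of Ptprn. Pam encodes the enzyme that amidates peptide hormones inside the granule. It had 184, 185 and 127 RPKM in Diabetic, against 63.0, 73.0 and 79.8 RPKM in Control (log2 difference 1.18, adjusted p = 0.0403, limma). In Rescue it had 32.0 and 60.5 RPKM (Rescue minus Diabetic −1.87, adjusted p = 0.00262). Scamp2, a secretory carrier membrane protein, had 19.0, 18.6 and 21.5 RPKM in Diabetic, against 30.4, 33.0 and 27.0 RPKM in Control (log2 difference −0.59, adjusted p = 0.0400). Of the 19 genes tested in this list 7 were lower and 1 higher in Rescue than in Diabetic, beside 5.8% and 24% of all tested genes. The gene called higher was Phb (0.57), for prohibitin, a protein best known from mitochondria rather than secretory vesicles. The 7 lower included Atp6ap2, an accessory protein of the proton pump that acidifies granules (−1.06), and the granule cytochrome gene Cyb561 (−0.82). Cyb561 had 20.9 and 28.7 RPKM in Rescue, against 47.1, 47.4 and 38.1 RPKM in Diabetic. In Rescue against Control 3 of the 19 were called, all 3 lower, beside 5.48% of all tested genes. These were Scamp1 (−0.99), the synaptic vesicle gene Sv2b (−0.81) and the synapsin gene Syn2 (−0.66).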
